A study of Bos taurus with 40 samples.

Results

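ITGA6, ITGA9 and ITGA11 encode 3 integrin alpha subunits, and their transcripts were followed through carbachol and cyclic stretch in strips of bovine tracheal smooth muscle. The members were taken by gene name. Each is represented by 1 pair of duplicate spots, 69 and 70 for ITGA6 (NCBI gene 535043), 993 and 994 for ITGA9 (gene 532127) and 553 and 554 for ITGA11 (gene 523755). They make up 3 of the 14 named genes on an array of 520 spot pairs, of which 190 had enough values for a test. Muscle of 5 animals was divided over 4 treatments: saline without stretch, saline with stretch, carbachol without stretch, and carbachol with stretch. Saline was a physiological salt solution, carbachol, a stable agonist of muscarinic acetylcholine receptors, was given at 1 µM in the same solution, and stretch was a sinusoidal length change of 10% of muscle length at 1 Hz. The 20 RNA samples were each labelled with Cy3 and with Cy5 and hybridised in pairs to 20 custom oligonucleotide arrays. The sources used here do not give genotype, breed or age of the cattle or how long strips were treated, and the tissue came from a slaughterhouse.

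Integrins are receptors of the cell surface that pair an alpha with a beta subunit, bind the matrix outside the cell and connect it to the actin cytoskeleton through focal adhesions. In smooth muscle they sit where contractile force is passed to the matrix, and they also act as sensors of mechanical load. The alpha 6 subunit forms laminin receptors with beta 1 or beta 4. The alpha 9 subunit pairs with beta 1 and binds tenascin C, osteopontin and VCAM-1, while alpha 11, also a partner of beta 1, is a receptor for fibrillar collagen and carries the inserted ligand-binding domain that alpha 6 and alpha 9 lack.

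The array held no named probe for any of 35 markers of smooth muscle, epithelium, fibroblasts, endothelium, leukocytes, cartilage or nerve, so the labelled tissue could not be checked against its markers. These are values of whole strips, in which fewer cells of a type and less RNA per cell cannot be told apart. Arrays had values for 334 to 575 of 1040 spots, and their number limits the precision. Arrays 1 to 12 carried animals 1 to 3, and arrays 13 to 20 carried the other two. Differences between these animals and between these arrays cannot be told apart.

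All 3 transcripts gave spot values on most arrays, though their signal over background is unknown. Raw intensities of ITGA6 ran from 657 to 5881 with a median of 1647.5, those of ITGA9 from 843 to 4061 with a median of 1714.5, and those of ITGA11 from 535 to 3608 with a median of 1327. The lowest ITGA11 readings lay near the lowest deposited value of the series, 369, and far from its highest, 63793. ITGA9 had a value in all 80 of its cells, ITGA6 in 76 of 80 and ITGA11 in 74 of 80. Both ITGA6 spots were blank on array 14, which leaves animal 4 without an ITGA6 value for saline unstretched and for carbachol stretched strips, because a value was kept only where both dyes were read. ITGA6 therefore has 18 RNA values, and ITGA9 and ITGA11 have 20.

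Duplicate spots of a transcript on the same array differed little, by a median of 0.0851 for ITGA6, 0.131 for ITGA9 and 0.121 for ITGA11 on the log2 scale. The same RNA read in both dyes, on 2 arrays, differed far more. The median difference was 0.446 for ITGA6, 0.306 for ITGA9 and 0.520 for ITGA11, after normalization. By contrast, 2 strips hybridised to 1 array had a median log2 ratio, without its sign, of 0.179, 0.198 and 0.173. For all 3 genes, 2 readings of 1 RNA on different arrays thus lay further apart than readings of 2 RNAs on the same array. Ratios within arrays were corrected by loess and levels between arrays only shifted, so the 2 measures are unlike.

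ITGA6, the laminin receptor subunit, differed mainly between animals. Its normalized log2 intensity in saline unstretched strips was 10.08, 10.53, 10.25 and 11.20 in animals 1, 2, 3 and 5. In saline stretched strips it was 9.60, 10.58, 10.30, 11.21 and 11.47 in animals 1 to 5. Animal 5 was the highest and animal 1 the lowest in both groups, and animal 4, read only in the second, was next to animal 5. In carbachol unstretched strips the level was 9.63, 10.37, 10.43, 11.26 and 11.51, and in carbachol stretched strips it was 10.40, 10.96, 10.23 and 11.28 in animals 1, 2, 3 and 5. Group means were 10.51 ± 0.492 (SD, n = 4), 10.63 ± 0.747 (SD, n = 5), 10.64 ± 0.753 (SD, n = 5) and 10.72 ± 0.488 (SD, n = 4) in the same order. The 4 groups overlapped throughout, and their means spanned 0.20 against 1.44 for the means of the 5 animals. Means over animals 1 to 3 and over animals 4 and 5 were 10.28 and 11.30.

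ITGA9, the subunit of the tenascin C and osteopontin receptor, was the most even of the 3 between animals. In saline its log2 intensity was 10.20, 10.76, 10.72, 10.94 and 10.97 without stretch and 10.26, 11.15, 10.83, 10.96 and 10.85 with stretch in animals 1 to 5. In carbachol it was 10.22, 10.42, 10.95, 10.74 and 10.55 without stretch and 10.69, 10.65, 10.80, 10.92 and 10.91 with stretch. Animal 1 was lowest in 3 of the 4 groups, and carbachol stretched strips had the narrowest range. The group means were 10.72 ± 0.309 for saline unstretched, 10.81 ± 0.332 for saline stretched, 10.58 ± 0.282 for carbachol unstretched and 10.80 ± 0.125 for carbachol stretched strips (SD, n = 5 each). Carbachol without stretch had the lowest mean of the 4, below all 5 values of carbachol with stretch, while the values of both groups overlapped.

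ITGA11, the collagen receptor subunit, had its 2 highest means in the untreated and the doubly treated strips. Its log2 intensity in saline was 9.92, 10.59, 10.49, 10.44 and 10.55 without stretch and 9.19, 10.63, 10.29, 10.16 and 10.52 with stretch in animals 1 to 5. In carbachol it was 9.18, 10.17, 10.32, 10.22 and 10.35 without stretch and 10.26, 10.64, 10.07, 10.46 and 10.50 with stretch. Animal 1 stood below the other animals in 3 of the 4 groups. Group means were 10.40 ± 0.274, 10.16 ± 0.572, 10.05 ± 0.489 and 10.39 ± 0.223 (SD, n = 5 each) for saline unstretched, saline stretched, carbachol unstretched and carbachol stretched strips. Over the 3 genes, 18 of 18 pairs of groups overlapped, as did 98.1% (1118 of 1140) of such pairs over the 190 tested features. Neighbours in the order of the group means thus did not differ beyond the spread between animals, a reading that leaves out the pairing of strips by animal, which the tests use.

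**Figure D1:**
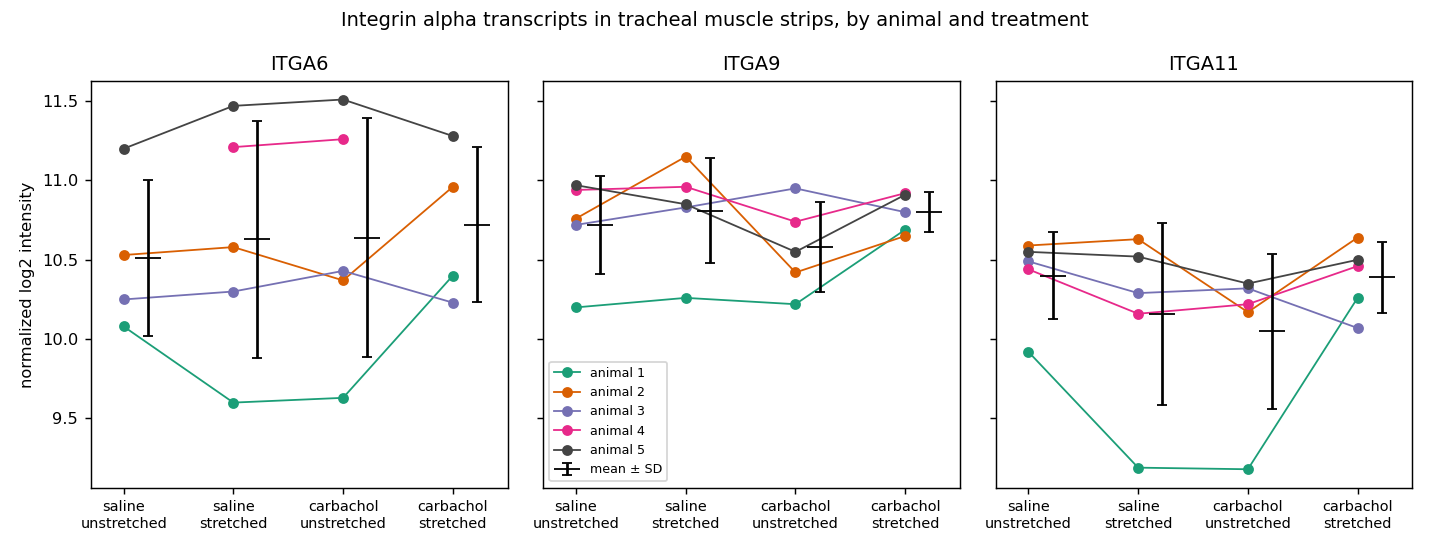
Normalized log2 intensity of ITGA6, ITGA9 and ITGA11 (vertical axis) in the 4 treatment groups (horizontal axis). Each coloured line joins the RNA samples of 1 animal, and black marks give the group mean with its SD. Animals 4 and 5 lie highest for ITGA6 wherever measured, and animal 1 lies near 9.2 for ITGA11 in the saline stretched and carbachol unstretched strips, at 9.19 and 9.18.

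The first comparison was of stretched against unstretched strips, with saline and carbachol averaged, and asked whether cyclic stretch alters transcript levels. None of the 3 integrin transcripts passed the test. The log2 change was 0.15 ± 0.0920 (SE) for ITGA9, a fold of 1.11, and its 95% interval of -0.04 to 0.35 reaches a fold of 1.27 at its upper end. It was 0.10 ± 0.114 (SE) for ITGA6, with an interval of -0.15 to 0.34, and 0.05 ± 0.112 (SE) for ITGA11, with an interval of -0.18 to 0.29. In limma 0 of the 3 passed, with adjusted p of 0.574, 0.847 and 0.983, and 0 had an unadjusted p under 0.05. Over all features 3.16% (6 of 190) passed. ITGA9 was higher in 4 of 5 animals, ITGA6 in 3 of 4 and ITGA11 in 3 of 5. Of the 118 features with values in every animal, 27.1% moved 1 way in all 5, a stricter condition than these counts. Within the array sets the mean change of ITGA9 was 0.18 over animals 1 to 3, against 0.11 over animals 4 and 5, and that of ITGA11 was 0.07 and 0.02.

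Within saline, the stretch change was -0.24 ± 0.158 (SE) for ITGA11, 0.09 ± 0.130 for ITGA9 and -0.03 ± 0.166 for ITGA6 on the log2 scale. In single animals it was -0.73, 0.03, -0.20, -0.28 and -0.03 for ITGA11, and animal 1 thus had the lowest value. For ITGA9 the values were 0.06, 0.38, 0.11, 0.01 and -0.12. In limma 0 of the 3 passed (adjusted p of 0.58, 0.855 and 0.962), against 2.11% of all features (4 of 190).

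Within carbachol, all 3 had positive mean changes with stretch, none of which passed. ITGA11 had the largest, 0.34 ± 0.158 (SE), a fold of 1.27 with an interval of 1.01 to 1.60, from animal values of 1.08, 0.48, -0.25, 0.24 and 0.16. Its unadjusted p in limma was 0.0449 and its adjusted p 0.533. Without animal 1 the change was 0.16, and without animal 3 it was 0.49. From ratios within arrays alone it was 0.0016 ± 0.122 (SE), and with array effects removed before averaging it was 0.04. Its mean was 0.44 over animals 1 to 3, against 0.20 over animals 4 and 5. ITGA6 had a log2 change of 0.23 ± 0.166 and ITGA9 one of 0.22 ± 0.130 (SE), with adjusted p of 0.731 and 0.656 in limma. Without animal 1 the ITGA6 change was 0.04, and the ITGA9 change turned to -0.19 in within-array ratios and to -0.23 with array effects removed. ITGA9 and ITGA11 were each higher in 4 of 5 animals and ITGA6 in 2 of 4. Of 118 features with values in every animal, 5.08% moved 1 way in all 5, a stricter condition. The share of all features that passed was 1.05% (2 of 190).

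Carbachol was compared with saline, averaged over stretch, to ask which transcripts follow muscarinic stimulation. The changes were small for all 3 integrins: 0.11 ± 0.114 (SE) for ITGA6, -0.08 ± 0.0920 for ITGA9 and -0.06 ± 0.112 for ITGA11 on the log2 scale. ITGA6 was higher in 4 of 4 animals, by 0.18, 0.11, 0.05 and 0.06 in animals 1, 2, 3 and 5. Each of these was smaller than the median difference between both labellings of 1 ITGA6 RNA, 0.446. That difference is between 2 single readings, while each change draws on 4 RNA values averaged over both dyes, so they are unlike measures. Of features with values in all 5 animals, 13 of 118 moved 1 way in all 5, a stricter condition than the 4 of 4 of ITGA6. The intervals were -0.14 to 0.35, -0.27 to 0.12 and -0.30 to 0.17, which as folds lie between 0.814 and 1.27. In limma 0 of the 3 passed, each with an adjusted p of 0.976, and 0% of all features did (0 of 190, with 11 at an unadjusted p under 0.05).

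In unstretched strips ITGA11 was lower with carbachol in 5 of 5 animals, by log2 changes of -0.74, -0.43, -0.17, -0.22 and -0.20. No array held both of these strips of the same animal, and in within-array ratios, which link them through other strips or other animals, the change was -0.08 ± 0.118 (SE). Among the 118 features with values in all 5 animals, 3.39% (4) moved 1 way in every animal, and ITGA11 was the 1 that was lower throughout. Its mean change was -0.35 ± 0.158 (SE), a fold of 0.783 with an interval of 0.622 to 0.986. The mean was -0.45 over animals 1 to 3, against -0.21 over animals 4 and 5. The unadjusted p in limma was 0.0389 and the adjusted p 0.931, so the change did not pass. ITGA9 had a change of -0.14 ± 0.130 and ITGA6 one of -0.02 ± 0.166 (SE), with adjusted p of 0.931 and 0.973. No feature passed in limma (0% of 190, while 7 had an unadjusted p under 0.05). The ITGA11 change had an unadjusted limma p of 0.179 when the replicate block was left out, and from Cy5 values alone it was -0.18.

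In stretched strips the carbachol change of ITGA11 was 0.23 ± 0.158 (SE), from animal values of 1.08, 0.01, -0.22, 0.30 and -0.02. ITGA6 had the same mean, 0.23 ± 0.166 (SE), from 0.81, 0.38, -0.08 and -0.19 in animals 1, 2, 3 and 5. For both genes animal 1 was the highest, and without it the changes were 0.02 for ITGA11 and 0.04 for ITGA6. ITGA9 had a change of -0.01 ± 0.130 (SE), and its animal values ran from -0.50 in animal 2 to 0.43 in animal 1. In limma 0 of the 3 passed (adjusted p of 0.847 for ITGA6 and ITGA11 and 0.98 for ITGA9), nor did any other feature (0% of 190, with 15 at an unadjusted p under 0.05).

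Whether carbachol altered the response to stretch was read from the interaction, the stretch change in carbachol minus that in saline. ITGA11 had the largest value of the 3, 0.58 ± 0.223 (SE), with a 95% interval of 0.11 to 1.05. It had the fifth smallest p of 190 features, an unadjusted limma p of 0.0183, and an adjusted p of 0.696. ITGA6 had an interaction of 0.26 ± 0.240 and ITGA9 one of 0.13 ± 0.184 (SE), with adjusted p of 0.851 and 0.914. In limma 0 of the 3 passed and 0% of all features (0 of 190, with 9 at an unadjusted p under 0.05).

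The interaction of ITGA11 was uneven between animals, at 1.81, 0.44, -0.05, 0.52 and 0.19 in animals 1 to 5, and without animal 1 it was 0.27. Its mean was 0.74 over animals 1 to 3, against 0.35 over animals 4 and 5. ITGA6 had 1.25, 0.54, -0.26 and -0.50 in animals 1, 2, 3 and 5, so that its sign turned without animal 1, to -0.07. In animal 1 the saline stretched and the carbachol unstretched strip were read only on arrays 1 and 4. There ITGA11 had log2 levels of 9.32 and 9.53 on array 1 and 9.06 and 8.83 on array 4, for saline stretched and carbachol unstretched in turn. The other 2 strips of that animal, on arrays 6, 10, 11 and 12, had levels of 9.85 to 10.55. In animal 1, treatment and array therefore cannot be told apart for the interaction. In animals 4 and 5, too, these 2 strips always shared arrays with each other and not with the remaining 2. In a limma test of the interaction between animals 4 and 5 and animals 1 to 3, ITGA11 differed by -0.38 ± 0.497 and ITGA9 by 0.32 ± 0.409 (SE). Neither passed, with adjusted p of 0.705 and 0.697, nor did any of the 162 features in that test, of which 28 had an unadjusted p under 0.05. ITGA6 had an interaction in only 1 animal of the second set, so its difference is not given.

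Strips given carbachol and stretch together were compared with untreated strips. ITGA6 had a log2 change of 0.20 ± 0.170 (SE), with 0.32, 0.42, -0.02 and 0.09 in animals 1, 2, 3 and 5. ITGA9 had one of 0.07 ± 0.130 and ITGA11 one of -0.01 ± 0.158 (SE). The interval of ITGA11 ran from -0.34 to 0.32, a fold of 0.788 to 1.25. In limma 0 of the 3 passed (adjusted p of 0.772 for ITGA6 and 0.99 for the others), against 3.68% of all features (7 of 190).

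Stretch alone was set against carbachol alone, a comparison in which animals 1, 4 and 5 had both strips on the same 2 arrays with the dyes exchanged. ITGA9 had log2 differences of 0.04, 0.73, -0.12, 0.22 and 0.30 in animals 1 to 5, higher with stretch in 4 of 5, a mean of 0.23 ± 0.130 (SE) and a fold of 1.17. The mean was 0.22 over animals 1 to 3, against 0.26 over animals 4 and 5. This did not pass in limma, with an unadjusted p of 0.0921 and an adjusted p of 0.663. ITGA11 had a log2 difference of 0.11 ± 0.158 and ITGA6 one of -0.01 ± 0.152 (SE), with adjusted p of 0.924 and 0.984. For ITGA6 animal 4 had a value here, and the differences in animals 1 to 5 were -0.04, 0.21, -0.13, -0.05 and -0.03. Of all features, 0.526% (1 of 190) passed. Of 148 features with both values in every animal, 14.9% moved 1 way in all 5, a stricter condition than the 4 of 5 of ITGA9.

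**Figure D2:**
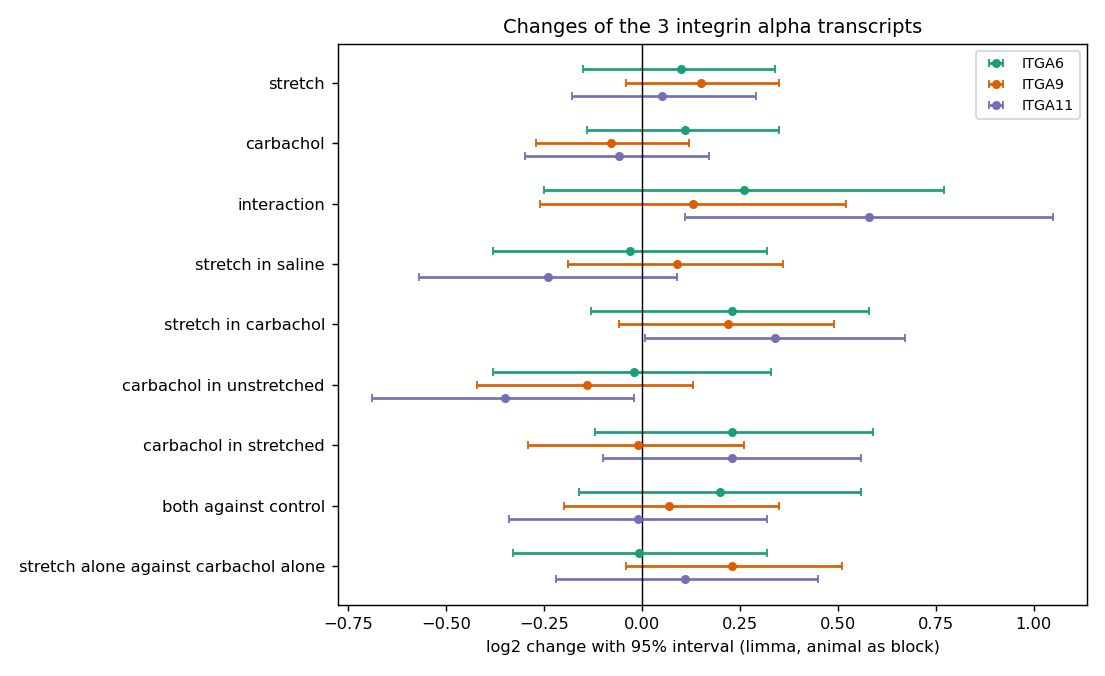
Log2 change (horizontal axis) of ITGA6, ITGA9 and ITGA11 in each of 9 comparisons (vertical axis), from limma with the animal as block; bars are 95% intervals before adjustment for multiple tests. The intervals of ITGA11 leave out 0 for the interaction (0.11 to 1.05), stretch in carbachol (0.01 to 0.67) and carbachol in unstretched strips (-0.69 to -0.02), and all others include it.

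In all, 0 of 27 tests on the 3 genes passed, 3 had an unadjusted p under 0.05 and all 3 of these were of ITGA11. The 4 groups serve in several comparisons, so these 3 values are not independent of each other. In particular the interaction is the difference of the stretch change in carbachol and that in saline. Strips also shared arrays, for which the fit has no term, so these 3 p-values can be too small. In within-array ratios ITGA11 had 0.04 for the interaction, 0.0016 for stretch in carbachol and -0.08 for carbachol in unstretched strips.

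Ratios between strips of the same animal on 1 array leave out the shift between arrays described above. Stretch alone and carbachol alone met on 6 arrays. There ITGA9 was higher with stretch on 6 of 6 arrays, by log2 ratios of 0.04 and 0.04 in animal 1, 0.31 and 0.12 in animal 4 and 0.36 and 0.23 in animal 5. The mean over these 3 animals was 0.18 ± 0.130 (SD, n = 3). Of 163 features read on all 6 arrays, 11% (18) were higher on every one. ITGA6 was higher on 3 and lower on 3, with ratios from -0.34 to 0.28, and ITGA11 was higher on 2 and lower on 4, from -0.21 to 0.43. For ITGA6 the ratio was positive on all 3 arrays with the stretched strip in Cy5 and negative on all 3 with it in Cy3, and its means per animal were -0.04, -0.05 and -0.03 in animals 1, 4 and 5.

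Carbachol with stretch met untreated strips on 6 arrays of animals 2 to 5. ITGA11 was lower on 4 of them and ITGA9 on 4, with mean log2 ratios over animals of -0.15 ± 0.161 and -0.09 ± 0.0785 (SD, n = 4). Animals 2 and 3 had 1 such array each, with the carbachol stretched strip in Cy3 on both, so their dye was not balanced. ITGA11 had ratios of -0.29 and -0.29 there, against means of 0.02 and -0.05 in animals 4 and 5, which were read with the dyes exchanged. ITGA6 was higher on 4 of 5 arrays, with a mean of 0.07 ± 0.184 (SD, n = 4). Stretch within saline could be read directly on 2 arrays. ITGA9 was higher by 0.27 in animal 2 and 0.23 in animal 3 and ITGA6 by 0.12 and 0.26, while ITGA11 had ratios of 0.19 and -0.23. On both of these arrays the stretched strip was in Cy5, so the dye was not balanced. Stretch within carbachol was read on 1 array, of animal 2, where the log2 ratio was 0.28 for ITGA6, -0.17 for ITGA9 and 0.18 for ITGA11. There too the stretched strip was in Cy5, and the dye was not balanced.

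**Figure D3:**
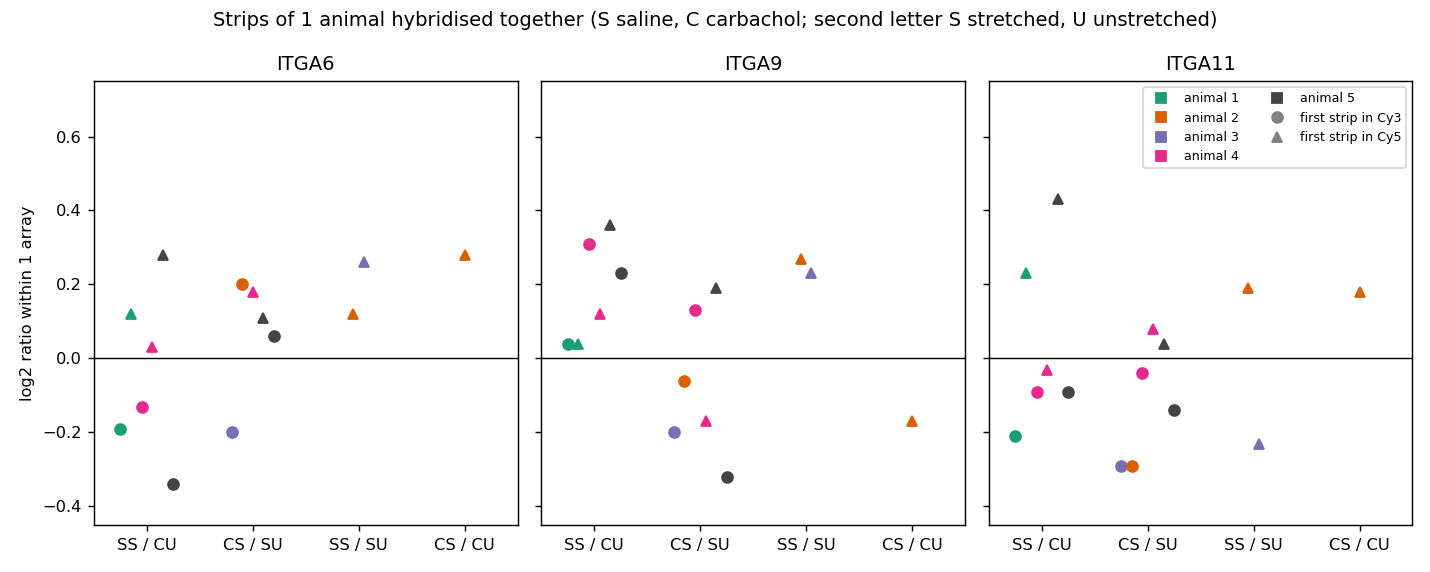
Log2 ratio (vertical axis) between 2 strips of 1 animal on the same array, for the 4 pairs of treatments that met on arrays (horizontal axis; the first strip over the second). Colours mark the animal, and the symbol gives the dye of the first strip. ITGA9 lies above 0 on all 6 arrays that pair saline stretched with carbachol unstretched strips, from 0.04 to 0.36.

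A limma fit on such ratios alone, with dye-exchanged arrays of the same strips averaged, was added after the values were seen. It also uses the arrays that pair strips of different animals among animals 1 to 3. Ratios of these animals share strips but were fitted as independent values, which can make the errors too small. For stretch in saline 27.4% of features had an unadjusted limma p under 0.05 in this fit, against 10.0% in the fit of levels. In the ratio fit ITGA9 rose with stretch in saline by 0.27 ± 0.0739 (SE, limma adjusted p = 0.0412). In stretched strips ITGA9 was lower in carbachol than in saline by a log2 change of -0.37 ± 0.0835 (SE, limma adjusted p = 0.0269). Over all alternatives the adjusted p ran from 1.01e-05 to 0.999 for the first and from 2.95e-07 to 0.999 for the second. Leaving out any of the 5 animals lost both calls, at adjusted p of 0.0653 to 0.428 and 0.0553 to 0.366, with changes of 0.26 to 0.28 and -0.40 to -0.33. No array held both a saline stretched and a carbachol stretched strip, so the second value was read through other strips. In animals 4 and 5, arrays paired only stretch alone with carbachol alone and both treatments with neither. The interaction therefore rests on animals 1 to 3 in this fit, while that from levels uses all 5. The 2 called ITGA9 changes each combine an overall change with part of the interaction, so animals 4 and 5 alone could give neither. Averaged over the other treatment, the ITGA9 change in this fit was 0.04 for stretch and -0.14 for carbachol. The ITGA9 interaction was -0.46 ± 0.137 (SE), opposite in sign to that from levels, with a limma adjusted p of 0.232. The ITGA9 stretch change in carbachol, -0.19 ± 0.0822 (SE, limma adjusted p = 0.311), was likewise opposite in sign. The interaction of ITGA11 was 0.04 ± 0.203 (SE) in this fit. The fit called 6.84% of features (13 of 190) for stretch in saline and 2.11% (4 of 190) for carbachol in stretched strips, and ITGA6 and ITGA11 passed in none of the 9 comparisons.

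Animals accounted for most of the variation of each transcript. In a layout of 5 animals by 4 treatments the animal took 89.1% of the sum of squares of ITGA6, 62.1% of that of ITGA11 and 56.5% of that of ITGA9. The treatment took 2.47%, 14.2% and 12.4%. Over the 118 features with all 20 RNA values the medians were 51.0% for the animal and 10.0% for the treatment. With 20 RNA values the degrees of freedom alone would give 21.1% and 15.8%. ITGA6 has 18 values, so these 2 shares do not hold for it. Its own shares, each adjusted for the other term, do not add up to the whole. ITGA6 was well above the median feature in its animal share. The treatment share was above the median feature for ITGA11 and ITGA9 and below it for ITGA6. A large animal share lowers the treatment share of the total, so a share below that of the degrees of freedom is not a test of the treatment. The residual took 9.51% for ITGA6, 23.8% for ITGA11 and 31.1% for ITGA9. For ITGA6 the means of the array sets, 10.28 and 11.30, lie further apart than any of its group means, and animal and array set cannot be told apart in its share.

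**Figure D4:**
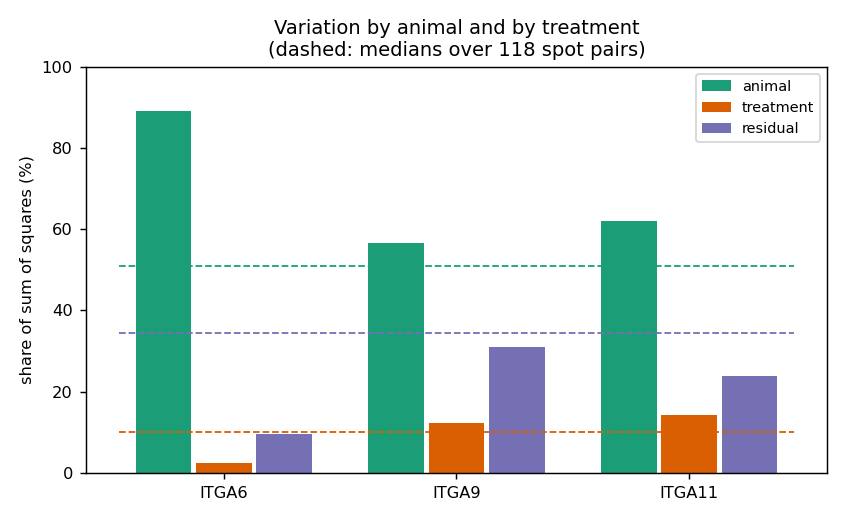
Share of the sum of squares (vertical axis, percent) taken by the animal, the treatment and the residual for each gene; dashed lines are the medians over 118 spot pairs with 20 RNA values. The animal bar is the tallest for each gene, at 89.1%, 56.5% and 62.1%, and the treatment bar is the shortest, at 2.47%, 12.4% and 14.2%.

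After each animal's mean was subtracted, ITGA6 and ITGA11 followed each other over 18 RNA samples with a Pearson correlation of 0.79. ITGA9 had correlations of 0.28 with ITGA6 over 18 samples and 0.55 with ITGA11 over 20. The feature most like ITGA6 was BRAF, a kinase of the MAPK pathway, at 0.88, then spots 369 and 370 and spots 319 and 320, both at 0.87. For ITGA11 it was spots 319 and 320 at 0.88, BRAF at 0.83 and spots 369 and 370 at 0.82, so the same 3 features led both. The median correlation with all features was 0.10 for ITGA6 and 0.04 for ITGA11. Much of this likeness rested on animal 1: without it the correlation of ITGA6 with BRAF was 0.69, that of ITGA11 with BRAF 0.46, and that of ITGA6 with ITGA11 0.36. For ITGA9 it was then -0.06 with ITGA6 and 0.52 with ITGA11. ITGA9 was most like the unnamed spots 607 and 608 at 0.78, 705 and 706 at 0.70 and 1015 and 1016 at 0.67, which were 0.77, 0.68 and 0.69 without animal 1. These samples come from 5 animals and share arrays and a common scaling, and the correlations are descriptions only.

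Of a list of 84 genes of integrins, their ligands, focal adhesions and the kinases downstream, 8 were named on the array and 5 were tested. Beside the 3 members these were BRAF and PRKCE, protein kinase C epsilon. PRKCE alone of the 5 rose with stretch, by 0.63 ± 0.0993 on the log2 scale (SE, limma adjusted p = 3.69e-04), while BRAF had a change of -0.03 ± 0.149 (SE, adjusted p = 0.983). Neither passed for carbachol. The alpha-actinin gene ACTN3 was read on 0 arrays, the caveolin gene CAV2 on 1 and 2 arrays for its 2 spot pairs and the kinase gene PAK3 on 3, too few for a test. None of 8 integrin beta subunits and none of 18 integrin ligands was named, so the partners of the 3 alpha subunits were not analysed here.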

How the data were processed

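The deposited values are linear spot intensity readings, 1 column for each dye of each array, as the authors gave them; the sources used here do not give scanner, image software, background treatment or the rule for blank cells (57.39% of all). Per the labels, control transcripts were spiked into the RNA, which was then amplified and labelled with Cy3 or Cy5. Probe names came from the platform annotation, which can be old, and were matched by gene number to RefSeq. Probe and protein sequences and genome positions were not used here.

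Values were taken to log2, corrected within arrays by loess (span 0.4, 4 robust iterations) and shifted by each array's median deviation over the 193 spots read on all 20 arrays, a scaling added because columns were unscaled. Duplicate spots were averaged, and an RNA value was the mean of both dyes. Features with at least 3 animals in each group were fitted with limma 3.58.1 in R 4.3.3 (statmod 1.5.0, matplotlib 3.10.9 in Python 3.11.15), with treatment and animal as terms, two-sided, with Benjamini-Hochberg adjustment over 190 features and a threshold of 0.05. The procedure was tested on simulated data that held no array effects, so that test does not bear on strips that shared arrays. The animals pair the strips by design, since each animal gave muscle to all 4 treatments. Deviations from group means correlated at 0.508 on average within an animal and at -0.156 between animals. Subtracting group means lowers the second value by itself, and strips of an animal also shared arrays, so neither value measures the pairing alone. Strips of 1 group came from separate animals. The members and gene lists were chosen with earlier results of these data known. The text names the 3 members, listed genes with a named spot pair and, for each member, the 3 features with the highest within-animal correlation. Alternatives varied the block, scaling, dye, background, dim spots, duplicates, array, variance model, missing values and animals.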

Additional observations from a re-analysis of the deposited data

Results flagged for a closer look

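Among 39 sets of member values (levels in a group, or changes per animal), 3 met Dixon's criterion for a single outlying sample, which chance meets in about 1 of 20 sets. ITGA11 in saline unstretched strips was 9.92 in animal 1, against 10.44 to 10.59 in the other 4 animals. ITGA11 in carbachol unstretched strips was 9.18 in animal 1, against 10.17 to 10.35. For ITGA6 the difference between stretch alone and carbachol alone was 0.21 in animal 2, against -0.13 to -0.03 in the other 4; in animal 2 these strips were not on a shared array.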

How the results depend on the processing

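Of 648 recomputed changes of the 3 genes under 25 alternatives, 584 kept their direction and stayed on the same side of the threshold, 8 kept their direction and passed it, and 56 changed sign, 3 of which passed it too. The sign changes were 26 of 207 for ITGA6, 22 of 225 for ITGA9 and 8 of 216 for ITGA11, since ITGA6 and ITGA11 were not tested in every alternative. The within-array ratio fit and 1 dye channel sufficing were chosen after seeing the data. The cause was not tested except where given.

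With array effects removed before averaging, each array's deviation enters both its channels, which makes the errors too small. This called 70 features for stretch, 50 for carbachol, 74 for the interaction, 91 and 65 for stretch in saline and in carbachol, 29 for carbachol in unstretched and 89 in stretched strips, 67 for both treatments and 62 for stretch alone against carbachol alone. ITGA9 then passed for carbachol (-0.13), the interaction (-0.56, reversed), stretch in saline (0.32) and in carbachol (-0.23, reversed), for carbachol in unstretched (0.15, reversed) and stretched strips (-0.41) and stretch alone against carbachol alone (0.18), and was -0.09 for both treatments. ITGA6 passed for both treatments (0.13) and changed sign to 0.03 for stretch in saline, 0.03 for carbachol in unstretched strips and 0.0043 for stretch alone against carbachol alone; ITGA11 had -0.0097 for carbachol in stretched strips. The fit of 40 channels with arrays as a random block, which counts both labellings of an RNA, called 60 for stretch, 20 for carbachol, 41 and 11 for stretch in saline and in carbachol, 1 and 16 for carbachol in unstretched and stretched strips, 33 for both and 39 for stretch alone against carbachol alone. In it ITGA9 passed for the last (0.19, adjusted p = 0.0438) and changed sign for the interaction (-0.15), stretch in carbachol (-0.0086) and both (-0.06). Within-array ratios, fitted as independent though some share a strip, called 35, 5, 1, 13, 8, 1, 4, 18 and 10 features in the order of the first list. Signs changed to -0.02 for ITGA11 with stretch and -0.04 with carbachol in stretched strips, to 0.03 and 0.04 for ITGA6 with stretch in saline and carbachol in unstretched strips, and for ITGA9 to -0.46 (interaction), -0.19 (stretch in carbachol), 0.08 (carbachol in unstretched strips) and -0.10 (both); ITGA9 passed at 0.27 for stretch in saline and -0.37 for carbachol in stretched strips.

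Without the replicate block 1 feature was called for stretch in carbachol and 3 for both, ITGA6 had -0.04 for the interaction, 0.12 for stretch in saline and 0.13 for carbachol in unstretched strips, and no call on the 3 genes changed. Cy5 alone called 3 for stretch and 3 for both; ITGA11 was 0.03 for carbachol and 0.09 for both, and ITGA6 0.07 for stretch in saline, 0.06 for carbachol in unstretched strips and 0.01 for stretch alone against carbachol alone. Cy3 alone called 3 for both, and ITGA9 was 0.04 for carbachol in stretched strips. Quantile normalization called 1 for stretch in carbachol, 1 for carbachol in stretched strips and 4 for both, with -0.01 for the ITGA9 interaction and 0.05 for ITGA6 with carbachol in unstretched strips. Normexp gave -0.04 for the ITGA9 interaction, and 0.05 and 0.13 for ITGA6 with stretch in saline and carbachol in unstretched strips. For these 2 values 1 dye channel sufficing gave 0.0069 and 0.01. Unscaled values called 3 for stretch alone against carbachol alone and gave 0.09 there for ITGA6 and 0.05 for ITGA9 with carbachol in stretched strips. They moved the median of all features by 0.26 for the interaction, 0.20 for stretch in carbachol and -0.17 for carbachol in unstretched strips. The odd-numbered spot gave 0.04 for ITGA9 with carbachol in stretched strips and 0.0035 for ITGA6 in stretch alone against carbachol alone, where median centring gave 0.0058, and the even-numbered spot 0.03 for ITGA11 with both. Leaving out dim values, the lowest 10% of each channel, left ITGA11 untested and called 0 for stretch alone against carbachol alone. Features with all 20 RNA values, which leave out ITGA6, called 0 there and 1 for stretch in carbachol. Fewer features were tested in both settings.

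Animals 1 to 3 alone called 4 for both and 2 for stretch alone against carbachol alone, with 0.01 for ITGA6 in the latter. Animals 4 and 5 alone called 3 for stretch, 2 for carbachol, 5 for the interaction, 4 for stretch in carbachol, 5 for carbachol in unstretched strips, 2 for both and 2 for stretch alone against carbachol alone, and ITGA9 was -0.06 for stretch in saline, 0.01 for carbachol in stretched strips and -0.04 for both; ITGA6 had too few values there. Leaving out each animal gave 4 to 7 called features for stretch, 1 to 6 for stretch in carbachol, 5 to 7 for both and 1 to 3 for stretch alone against carbachol alone. Stretch in carbachol called 6 without animal 2, 4 without animal 4, and 1 without animal 3 or 5; stretch alone against carbachol alone called 3 without animal 2 and 2 without animal 5. ITGA6 then ranged from -0.14 to 0.12 for stretch in saline, -0.13 to 0.12 for carbachol in unstretched strips, -0.07 to 0.51 for the interaction and -0.06 to 0.02 for stretch alone against carbachol alone. ITGA9 ranged from -0.15 to 0.0065 for carbachol, -0.12 to 0.11 for carbachol in stretched strips and -0.03 to 0.12 for both. ITGA11 ranged from -0.00053 to 0.12 for stretch and -0.10 to 0.09 for both. Signal over background is unknown.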
